A study of Saccharomyces cerevisiae with 12 samples.

Results

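The genes described are the 53 protein-coding genes of budding yeast (Saccharomyces cerevisiae) whose standard names consist of NOP, UTP or RRP and a number. They were 53 of the 5585 protein-coding genes matched in the count table, with 17 NOP, 18 UTP and 18 RRP genes. The rule uses names and no measured value, though it was set with earlier results of these data known. All 53 passed the filter on low counts, and the lowest count of any of them in any library was 852.

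The products of these genes build ribosomes, mostly in the nucleolus, the part of the nucleus where ribosomal RNA is made. A long precursor RNA is bound as it is transcribed by the small subunit processome, which holds the UtpA, UtpB and UtpC complexes and the U3 snoRNP. Box C/D and H/ACA snoRNPs modify the precursor, large subunit factors assemble on its later part, and the exosome trims and degrades RNA from the 3′ end. Genes for these factors are known in yeast to be transcribed together in response to nutrients and stress, under the TOR and Sch9 kinases and the repressors Dot6, Tod6 and Stb3.

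By these roles the members divide into UtpA (6 genes), UtpB (4), UtpC (2), core snoRNP proteins (4), other small subunit factors (14), factors of both subunits (2), large subunit factors (13), the exosome (7), and NOP13, which was given no role. The name does not cover the whole of ribosome assembly, since factors such as PWP2, NAN1 and IMP4 carry other names. The exosome subunits also work outside the nucleolus.

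RNA came from 3 groups of 4 cultures, which the series design calls biological replicates. The WT strain, written By4741 in the names of replicates 3 and 4, had the genotype MATa his3Δ1 leu2Δ0 met15Δ0 ura3Δ0, and these markers are listed for every strain. The mutants were in addition lys2Δ0 and can1Δ::LEU2-MFA1pr::His3, and carried either pup2-ts::URA3 or rpn5-ts::URA3, temperature-sensitive alleles of a core subunit and of a lid subunit of the proteasome. Cells were grown in YPD, a rich medium, to an optical density of about 0.5 with no treatment, and the labels used here give no growth temperature. Whether the ts strains differ from WT at the RNA level is the comparison the design sets, though the ts strains also differ from WT in the markers listed.

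Summed gene counts per library ranged from 18501508 to 60599134. The library labelled rpn5-ts replicate 1 went against its label at 2 markers, since LYS2 stood at 213 CPM and MET17 at 249, with at most 0.181 and 0.0906 in the other rpn5-ts libraries. MET17, deleted by label in all strains (as met15), also stood at 196 to 587 CPM in the pup2-ts libraries. In each group the library names of replicates 3 and 4 include "DNAse", which is absent from the other names. The labels give DNAse treatment for every library, so what separated these pairs is not stated. Levels are CPM, counts divided by library size after TMM scaling. Differences are log2 fold changes ± standard error (SE) from edgeR's quasi-likelihood test with Benjamini-Hochberg adjusted p over 5560 genes. A gene was called at an adjusted p under 0.05.

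Levels per length spanned a wide range. The mean RPKM over 12 libraries was highest for NOP1, at 789, which encodes fibrillarin, the methyltransferase of box C/D snoRNPs. It was followed by NOP10, a small H/ACA protein, at 718 RPKM and by NOP56, a box C/D core protein, at 658. NOP7, the yeast pescadillo and the highest large subunit factor, stood at 459.7 RPKM and NOP58, the partner of NOP56, at 454. The lowest was UTP20, a very long small subunit factor, at 34.8 RPKM, with UTP10 next at 60.4. The highest genes of the other roles were UTP9 in UtpA at 142 RPKM, UTP13 in UtpB at 107, RRP7 in UtpC at 180.3 and NOP6 among other small subunit factors at 275. RRP46 led the exosome at 137 RPKM, RRP12 led the factors of both subunits at 108, and NOP13 stood at 215. The core snoRNP proteins took 4 of the 5 highest places.

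The most widespread difference among these genes lay between the replicate pairs. Transcripts of 44 of the 53 genes were lower in replicates 3 and 4 than in replicates 1 and 2, with group as a term, where 34.0% of all genes tested were lower. UTP10 and RRP5 were higher, where 29.2% of all genes were. The median log2 difference of the 53 genes was -0.50, against -0.041 over all genes tested. In bulk RNA, a lower level in fewer cells and a lower level in every cell cannot be told apart.

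Their share of all gene counts was 1.60% to 2.10% in libraries 1 and 2 of each group, and 1.12% to 1.34% in libraries 3 and 4. Their summed level was 17933 and 17116 CPM in WT replicates 1 and 2 and 13289 and 14477 in replicates 3 and 4. In pup2-ts it was 17568 and 18239 CPM and then 13326 and 12977, and in rpn5-ts 16159 and 15083 and then 11525 and 11839.6. No library of replicates 3 and 4 reached the lowest of replicates 1 and 2. For 41 of the 53 genes, both of replicates 3 and 4 lay below both of replicates 1 and 2 in each of the 3 groups, where 24.3% of all genes did. UTP10 and RRP5 lay above in the same way, where 23.2% of all genes did. For 33 genes all 6 libraries of the one pair lay below all 6 of the other, where 14.2% of all genes did.

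**Figure D1:**
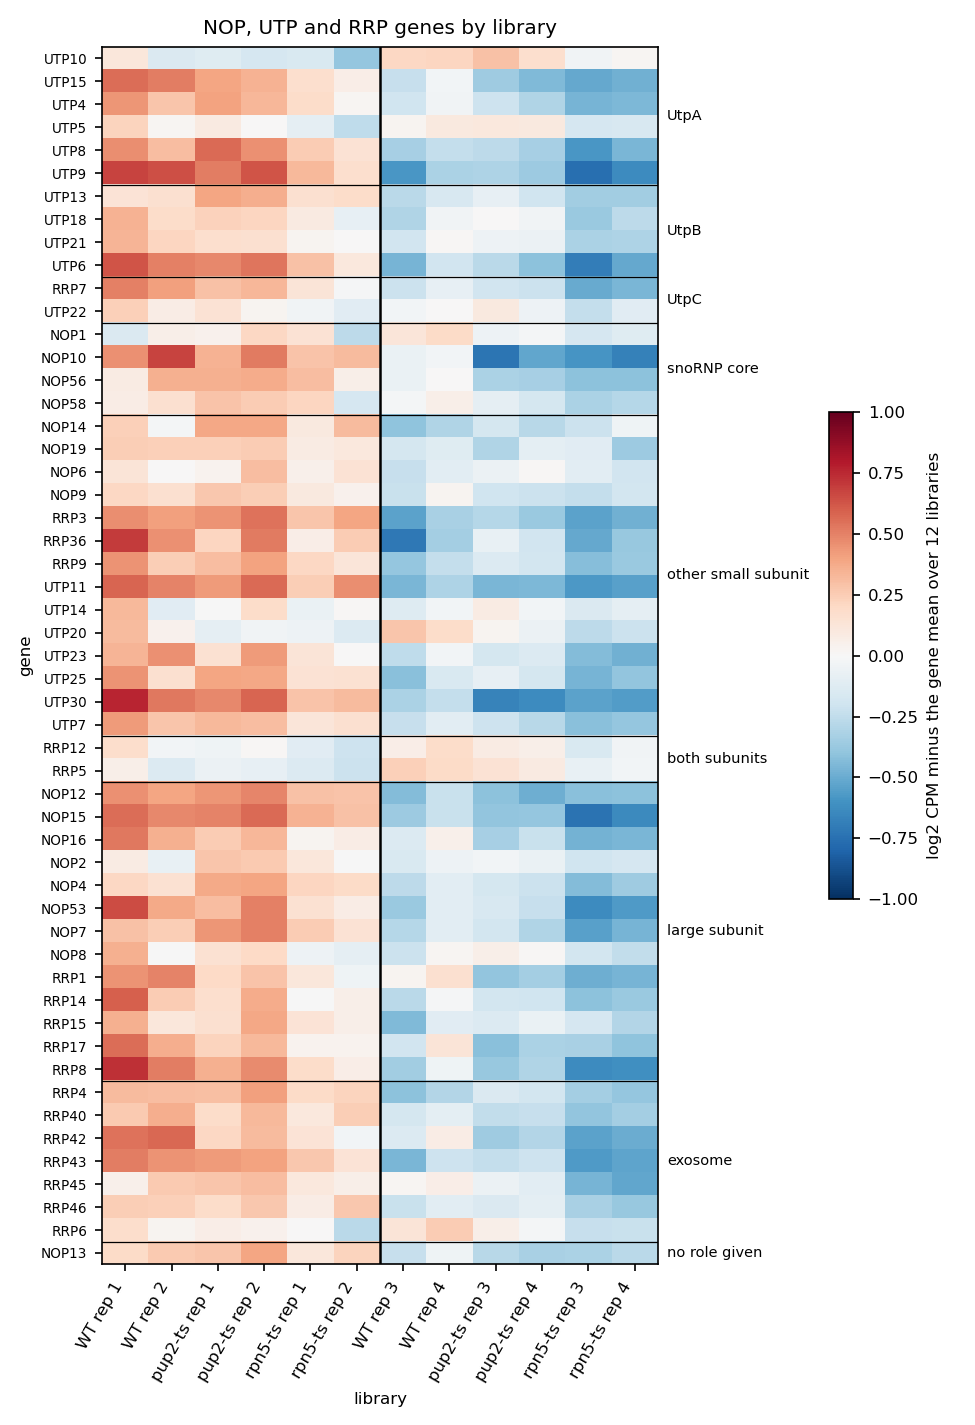
The map shows the log2 CPM of each of the 53 genes (rows, grouped by role) in each of the 12 libraries (columns), minus the gene's mean over the libraries. Replicates 1 and 2 of the 3 groups stand left of the black line and replicates 3 and 4 right of it. Of the 53 genes 44 were called lower in replicates 3 and 4, and 49 had a log2 difference below 0. The shares over all genes were 34.0% and 53.8%.

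The difference was present in each group taken alone. In the 4 WT libraries 26 of the 53 genes were lower and 0 higher, where 14.7% and 18.2% of all genes were, with a median of -0.42. UTP10 and RRP5 missed the threshold there. In the 4 pup2-ts libraries 42 were lower and UTP10 and RRP5 higher, where 35.7% and 35.0% of all genes were, with a median of -0.50. In the 4 rpn5-ts libraries 38 were lower and 0 higher, where 18.8% and 21.5% of all genes were, with a median of -0.53. RRP5 also missed it with upper-quartile factors over all 12 libraries.

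UtpA, the complex that binds the start of the precursor, held the gene with the highest difference, UTP10, and UTP9, the next to lowest after UTP30. UTP9 (YHR196W, chromosome VIII, 491931 to 493658, build sacCer3) had CPM of 389.7 and 382 (WT), 349 and 379 (pup2-ts) and 306 and 275 (rpn5-ts) in replicates 1 and 2. It stood at 163 and 196 (WT), 198 and 189.99 (pup2-ts) and 145 and 158 (rpn5-ts) in replicates 3 and 4. The pairs did not overlap in any group, and the log2 difference was -0.98 ± 0.063, adjusted p = 1.4e-07. UTP10 (YJL109C, chromosome X, 212000 to 217309), the longest UtpA protein, went the other way. It had CPM of 349 and 293 (WT), 297 and 288 (pup2-ts) and 291 and 248 (rpn5-ts) in replicates 1 and 2 and 373 and 375 (WT), 396 and 363 (pup2-ts) and 316 and 328 (rpn5-ts) in replicates 3 and 4. Within each group both later replicates were the higher, and the log2 difference was 0.28 ± 0.063, adjusted p = 0.0017. UTP8, UTP15 and UTP4 also fell, by 0.73, 0.68 and 0.55 on the log2 scale, while UTP5 had a difference of 0.0016 ± 0.053, adjusted p = 0.98.

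All 4 UtpB genes fell, from UTP6 (-0.85 ± 0.062) to UTP21 (-0.30 ± 0.052), with UTP13 at -0.47 ± 0.049 and UTP18 at -0.33 ± 0.062. In UtpC, RRP7 fell (-0.55 ± 0.047, adjusted p = 1e-06), and UTP22 did not pass the threshold (-0.11 ± 0.053, adjusted p = 0.087). Of the core snoRNP proteins NOP10, NOP56 and NOP58 fell, while NOP1 showed -0.023 ± 0.10, adjusted p = 0.84. NOP1 was higher in the later pair of WT, lower in that of pup2-ts, and overlapped in rpn5-ts.

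NOP10 (YHR072W-A, chromosome VIII, 241664 to 241840), the smallest of the 53, had CPM of 366 and 426 (WT), 338 and 382 (pup2-ts) and 325 and 332 (rpn5-ts) in replicates 1 and 2. In the later pair it stood at 254 and 262 (WT), 161 and 185 (pup2-ts) and 177 and 167 (rpn5-ts). Its pairs did not overlap in any group, and the log2 difference was -0.87 ± 0.080, adjusted p = 1.9e-06. NOP56 had a difference of -0.51 ± 0.094 and NOP58 of -0.28 ± 0.083. NOP58 shares 489 bases with the dubious gene YOR309C on the same strand and NOP56 shares 360 with an antisense unit annotated on the same strand, and how shared reads were counted is not given in the sources used here.

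Of the 14 other small subunit factors 12 fell, and UTP14, an activator of the helicase Dhr1, and UTP20 were not called. UTP30 (YKR060W, chromosome XI, 556518 to 557342), a protein with the fold of ribosomal protein L1, had CPM of 114 and 96.3 (WT), 93.2 and 100.2 (pup2-ts) and 81.6 and 83.5 (rpn5-ts) in replicates 1 and 2. It stood at 53.6 and 56.8 (WT), 42.1 and 43.3 (pup2-ts) and 46.2 and 45.5 (rpn5-ts) in replicates 3 and 4, below the first pair throughout, with a log2 difference of -0.98 ± 0.064, adjusted p = 1.5e-07. UTP11 (YKL099C, chromosome XI, 255720 to 256472) had CPM of 193 and 182 (WT), 173 and 191 (pup2-ts) and 153 and 177 (rpn5-ts) in the first pair and 93.6 and 104 (WT), 93.7 and 94.5 (pup2-ts) and 86.6 and 88.4 (rpn5-ts) in the second. Here again no library of the second pair reached the first, and the log2 difference was -0.93 ± 0.052, adjusted p = 5.6e-08. RRP3, a DEAD-box helicase, had a difference of -0.84 ± 0.051, RRP36 of -0.74 ± 0.11 and RRP9, a protein of the U3 snoRNP, of -0.58 ± 0.054. UTP25, UTP7, a scaffold of the processome, UTP23, and NOP14 fell by 0.56, 0.54, 0.50 and 0.47 on the log2 scale. NOP19, NOP9, which binds the precursor near a cleavage site, and NOP6 fell by 0.38, 0.34 and 0.23, and NOP6 had the smallest difference of those called.

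All 13 large subunit factors fell, with a median of -0.51. NOP15 (YNL110C, chromosome XIV, 417826 to 418488), an RNA-binding factor of the early large subunit precursor, had CPM of 385 and 364 (WT), 369 and 386 (pup2-ts) and 332 and 319.5 (rpn5-ts) in replicates 1 and 2. It stood at 203 and 224 (WT), 198 and 199.97 (pup2-ts) and 157 and 168 (rpn5-ts) in replicates 3 and 4, with no overlap and a log2 difference of -0.91 ± 0.052, adjusted p = 6.2e-08. NOP12 had a difference of -0.79 ± 0.055, RRP8, a methyltransferase of the large ribosomal RNA, of -0.77 ± 0.063, NOP53, which brings the helicase Mtr4 to the precursor, of -0.69 ± 0.068, and NOP7 of -0.63 ± 0.075. NOP16, NOP4, RRP17, RRP1, RRP14 and RRP15 lay between -0.52 and -0.40. The smallest falls were those of NOP2, also a methyltransferase of the large ribosomal RNA (-0.22 ± 0.059), and NOP8 (-0.19 ± 0.065). RRP8 overlaps an annotated unit on its own strand over 94.5% of its length, and that unit held 73813 counts over the 12 libraries against 73843 for RRP8.

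Among the 7 exosome genes, the 4 ring subunits and both cap subunits measured here fell, and the nuclease RRP6 did not. The ring genes RRP43, RRP42, RRP46 and RRP45 had differences of -0.73 ± 0.055, -0.58 ± 0.050, -0.42 ± 0.051 and -0.36 ± 0.071. The cap genes RRP4 and RRP40 had differences of -0.58 ± 0.045 and -0.50 ± 0.047. RRP6, the nuclear 3′ to 5′ exonuclease of the complex, showed -0.016 ± 0.060, adjusted p = 0.83. Of the factors of both subunits, RRP5 rose (0.19 ± 0.058, adjusted p = 0.014) and RRP12, needed for export of both subunits, showed 0.067 ± 0.056, adjusted p = 0.32. NOP13 fell, at -0.49 ± 0.061.

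RRP5 (YMR229C, chromosome XIII, 725934 to 731123), whose product works in both subunits, had CPM of 578 and 505 (WT), 534 and 524 (pup2-ts) and 506 and 477 (rpn5-ts) in replicates 1 and 2. It stood at 653 and 632 (WT), 615 and 591 (pup2-ts) and 528 and 545 (rpn5-ts) in replicates 3 and 4, above the first pair within each group. Taken over all groups, the pairs of RRP5 overlapped.

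**Figure D2:**
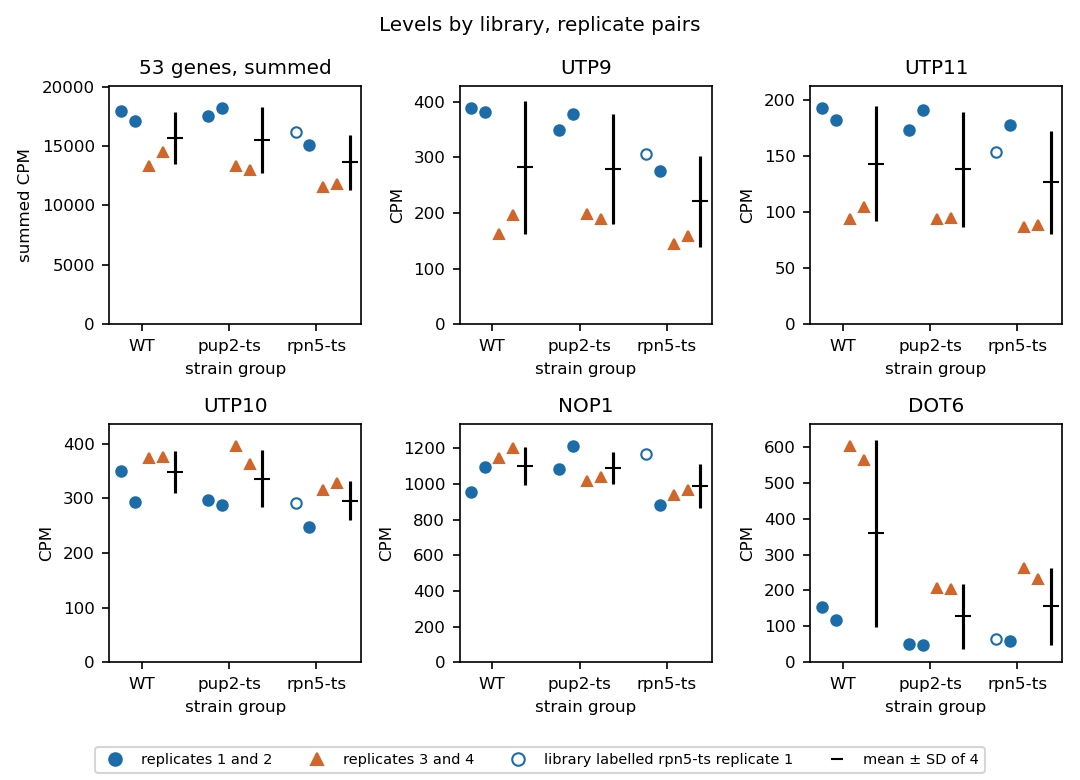
Each panel shows the CPM of a gene, or the sum over the 53 genes, in the 12 libraries by strain group, with circles for replicates 1 and 2, triangles for replicates 3 and 4, and a bar for mean ± SD of 4 libraries. The triangles lie below the circles for the sum, UTP9 and UTP11, above them within each group for UTP10 and DOT6, and among them for NOP1.

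Coding length moved with this difference. All 5 genes over 3000 bases (RRP5, UTP10, UTP20, RRP12 and UTP22) included none that was lower, with a median of 0.067, in a bin that holds only these 5. The median of all genes in that bin was 0.24. Up to 1000 bases the 18 genes had a median of -0.51 against -0.11 for all genes, from 1000 to 2000 bases the 20 genes had -0.58 against -0.065, and from 2000 to 3000 the 10 genes had -0.47 against 0.062. In order of rising length, 17 of 18, 19 of 20, 8 of 10 and 0 of 5 of the members were called lower. Of all genes in these ranges 37.7%, 36.7%, 29.6% and 11.8% were. The part of length in the result was not tested, and within each of the 4 ranges the median of the members lay below that of all genes.

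**Figure D3:**
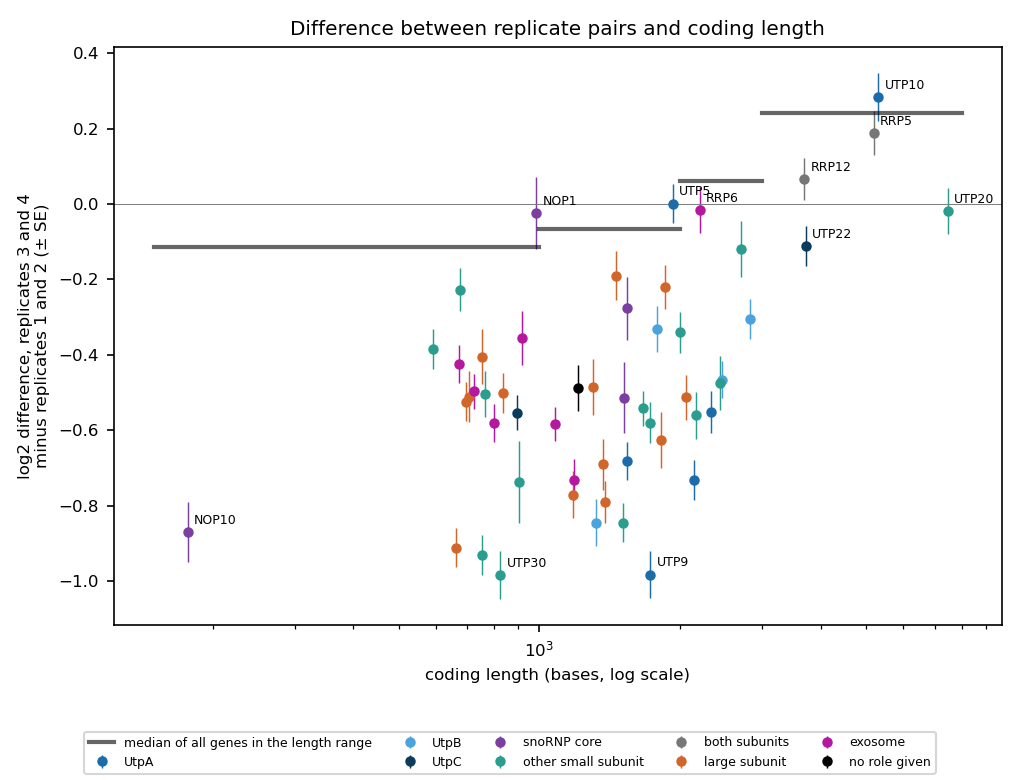
Each point is a gene, placed by coding length (bases, log scale) and by its log2 difference between replicates 3 and 4 and replicates 1 and 2 (± SE), coloured by role. Black lines give the median of all genes in each length range, and the 5 genes over 3000 bases lie between -0.11 and 0.28.

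Promoters of ribosome assembly genes are known for 2 short elements, PAC and RRPE. PAC was searched as GATGAG and RRPE as AAAATTTT, on both strands, from 250 bases before to 50 after the start codon. These letters cannot overlap each other. PAC was found in 44 of the 53 windows (83.0%) and RRPE in 31 (58.5%), against 20.0% and 9.51% of the windows of all 5560 genes. Both were present in 27 windows (50.9%, against 4.69%) and neither in 5, those of RRP42, RRP45, RRP46, UTP22 and UTP30. Of the 65 PAC matches 53 lay between 200 and 50 bases before the start codon, and of the 39 RRPE matches 35 did. The elements are not particular to the 53 genes. Among 93 further assembly factors with other names, 93.5% of windows held PAC, 81.7% RRPE and 76.3% both, each above the share of the 53 genes.

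The stretches before 4 of the most lowered genes are shown because each holds at least 1 of these elements. Only exact letters were searched, and variants of either element were not. The stretch of UTP30, which fell as far as UTP9, is shown with them because it holds no exact match. Each runs from 250 bases before the start codon to the base before the gene's interval in the count table, is read 5′ to 3′ on the gene's strand from RefSeq (R64, the sequence of sacCer3), and has PAC and RRPE matches of either strand in capitals.
UTP9 (chrVIII:491681-491876, plus strand): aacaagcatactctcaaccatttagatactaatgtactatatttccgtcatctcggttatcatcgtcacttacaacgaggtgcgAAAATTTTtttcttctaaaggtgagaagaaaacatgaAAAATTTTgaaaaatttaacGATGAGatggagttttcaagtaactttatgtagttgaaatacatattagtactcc
UTP11 (chrXI:256542-256722, minus strand): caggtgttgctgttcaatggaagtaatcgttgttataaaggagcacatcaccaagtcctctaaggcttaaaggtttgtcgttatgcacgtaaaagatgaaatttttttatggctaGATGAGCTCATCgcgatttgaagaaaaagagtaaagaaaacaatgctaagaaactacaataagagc
NOP15 (chrXIV:418569-418738, minus strand): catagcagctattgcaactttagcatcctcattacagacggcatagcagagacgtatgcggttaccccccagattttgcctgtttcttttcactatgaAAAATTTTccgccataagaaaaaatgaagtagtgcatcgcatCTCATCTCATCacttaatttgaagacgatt
NOP10 (chrVIII:241414-241606, plus strand): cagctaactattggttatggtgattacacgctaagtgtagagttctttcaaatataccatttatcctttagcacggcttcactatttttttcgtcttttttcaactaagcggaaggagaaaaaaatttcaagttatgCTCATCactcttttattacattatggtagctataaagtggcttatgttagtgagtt
UTP30 (chrXI:556268-556486, plus strand): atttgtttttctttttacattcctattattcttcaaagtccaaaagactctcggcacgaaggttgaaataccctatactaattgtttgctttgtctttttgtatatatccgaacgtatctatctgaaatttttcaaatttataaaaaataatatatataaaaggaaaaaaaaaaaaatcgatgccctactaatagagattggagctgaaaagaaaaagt

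The sequence of UTP11 holds its 2 PAC matches side by side and on opposite strands, and in that of NOP15 the 2 matches overlap by a base. UTP9 has 1 PAC and 2 RRPE matches, and NOP10 a single PAC. The 44 genes with PAC had a median log2 difference of -0.50 between the replicate pairs, and 37 of them were lower. The 5 with neither element had -0.42, and 4 were lower. Over all genes tested, the 1113 with PAC had a median of -0.18, and 534 were lower. The 4179 of all genes with neither had a median of -0.00095, and 1259 were lower. UTP10 and RRP5, the genes among the 53 that rose, hold both elements. A match is a string of letters and was not tested as a binding site.

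Regulators of these genes also differed between the pairs, as did many genes, with 29.2% of all genes higher and 34.0% lower. DOT6, a repressor that binds PAC, had CPM of 153 and 117 (WT), 51.7 and 47.9 (pup2-ts) and 66.0 and 60.6 (rpn5-ts) in replicates 1 and 2 and 603 and 564 (WT), 208 and 205 (pup2-ts) and 262 and 233 (rpn5-ts) in replicates 3 and 4. It was higher in the second pair of every group (2.04 ± 0.072, adjusted p = 4.3e-09), in the direction opposite to the 44 genes. Its relative TOD6 was lower (-0.32 ± 0.087, adjusted p = 0.0064), and STB3, a repressor that binds RRPE, was higher (0.70 ± 0.082, adjusted p = 1.4e-05). The kinase genes SCH9, TOR1 and TOR2 were higher, at 0.64 ± 0.10, 0.39 ± 0.058 and 0.53 ± 0.048, as was HMO1 at 0.45 ± 0.087. The intervals of TOR1 and TOR2 in the count table span 7538 and 7685 bases. All genes with a coding length over 3000 bases had a median of 0.24. FHL1 and CRF1, regulators of ribosomal protein genes, were lower, at -0.42 ± 0.045 and -0.65 ± 0.19. CRF1 had low levels, from 3.68 to 12.7 CPM, and its replicate pairs overlapped in rpn5-ts. SFP1, IFH1 and RAP1 were not called, at -0.18 ± 0.080, adjusted p = 0.07, 0.26 ± 0.13, adjusted p = 0.091 and 0.013 ± 0.064, adjusted p = 0.87. Whether any of these moved the 53 genes was not tested.

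In other lists of the pathway the share called lower differed from list to list, with 34.0% of all genes lower, and no difference between lists was tested. Of 93 further assembly factors 82 were lower and 3 higher, with a median of -0.47, among them FAL1 (-0.86), IMP4 (-1.02) and CIC1 (-0.84). Of 15 RNA polymerase I genes 11 were lower and 2 higher, with RRN9 at -0.58, RPA49 at -0.76 and RRN6 at -0.63. Of 11 other exosome and cofactor genes 7 were lower and 1 higher, with LRP1 at -0.76, AIR1 at -0.48 and MTR3 at -0.58. Of 131 cytosolic ribosomal protein genes, which have near-identical copies that may share reads, 59 were lower and 5 higher, with a median of -0.25. RPS30A stood at -0.68, RPS27A at -0.67 and RPL35B at -0.57.

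Against WT, rpn5-ts cells had lower levels of UTP20 and RRP6, the 2 of the 53 genes called in the fit with group alone, where 5.4% of all genes were lower, and 0 genes were called higher, where 8.27% were. At an unadjusted p under 0.05, 6 of the 53 passed, as did 1583 of all 5560 genes. DESeq2 called 4 lower, where 8.96% of all genes were, and limma-voom 2, where 5.2% were. The median log2 change of the 53 genes was -0.21, against -0.023 over all genes. Below 0 were 51 of the 53, where 52.7% of all genes were. Only UTP20, UTP22, UTP5, RRP6 and RRP12 had all 4 rpn5-ts libraries below all 4 WT libraries, 5 of 53 where 8.08% of all genes did so.

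UTP20 (YBL004W, chromosome II, 227636 to 235117) measured 331, 273, 321 and 302 CPM in WT replicates 1 to 4. In pup2-ts it stood at 249.5, 259.7, 271 and 254 and in rpn5-ts at 257, 241, 221 and 229. Both mutants lay below WT without overlap, with means ± SD of 307 ± 25.2, 259 ± 9.10 and 237 ± 15.4 CPM (n = 4 each). The log2 change in rpn5-ts was -0.37 ± 0.092, adjusted p = 0.02. An annotated unit on the same strand covers 78.7% of UTP20, and that unit held 83957 counts over the 12 libraries against 92909 for UTP20. Leaving out WT replicate 3, rpn5-ts replicate 3 or rpn5-ts replicate 4 ended the call.

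RRP6 (YOR001W, chromosome XV, 326832 to 329033) measured 176, 159, 171 and 187 CPM in WT and 164, 161, 163 and 154 in pup2-ts. In rpn5-ts it stood at 157, 129, 133 and 134, all below WT, with the library labelled rpn5-ts replicate 1 the highest of the 4. Its means ± SD were 173 ± 11.5 CPM for WT, 160.4 ± 4.41 for pup2-ts and 138 ± 12.7 for rpn5-ts (n = 4 each). The log2 change in rpn5-ts was -0.32 ± 0.090, adjusted p = 0.034. That call was lost on leaving out any of WT replicates 1, 3 and 4, pup2-ts replicate 2 or rpn5-ts replicates 2, 3 and 4. UTP5, of UtpA, stood at 296, 257, 259 and 272 CPM in WT and 238, 213, 226 and 227 in rpn5-ts, with -0.26 ± 0.084, adjusted p = 0.06.

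Libraries of one replicate pair deviated together across groups, with correlations of 0.14 to 0.78 at the same number and 0.4 to 0.81 at the other. With the replicate number as a block 30 of the 53 genes (56.6%) were lower in rpn5-ts and 0 higher, where 19.9% and 20.7% of all genes were. The median was -0.21. The 30 were all 6 UtpA genes, 3 of 4 UtpB, both UtpC, 1 of 4 snoRNP proteins, 5 of 14 other small subunit factors, RRP12, 7 of 13 large subunit factors and 5 of 7 exosome genes. The largest falls were those of RRP1, a large subunit factor (-0.51 ± 0.069, adjusted p = 0.00053), RRP42 (-0.49 ± 0.061, adjusted p = 0.00031), RRP8 (-0.46 ± 0.074, adjusted p = 0.0013), NOP10 (-0.43 ± 0.10, adjusted p = 0.0078) and NOP16 (-0.41 ± 0.064, adjusted p = 0.0012). UTP20 and RRP6 were among the 30, at -0.37 ± 0.076 and -0.33 ± 0.069. In 35 of the 53 genes rpn5-ts lay below the WT library of the same number in all 4 numbers, where 24.8% of all genes did.

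Without the library labelled rpn5-ts replicate 1, the blocked fit gave 25 of the 53 lower, all 25 among the 30, and NOP14 higher (0.25 ± 0.087, adjusted p = 0.043), where 20.2% and 21.3% of all genes were. The same library left out of the fit with group alone gave 2 lower and a median of -0.30, where 6.49% of all genes were lower. Within replicates 1 and 2 the fit called 4 genes lower and gave a median of -0.19, and within replicates 3 and 4 it called 35 lower and NOP14 higher, with a median of -0.22. In those fits 5.6% and 30.7% of all genes were lower. The median of the fit with group alone was -0.097 without WT replicate 1 and -0.13 without rpn5-ts replicate 3. With all annotated features it was -0.12, against 0.068 over the protein-coding genes, and 0 genes were called lower, where 6.04% of features were.

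**Figure D4:**
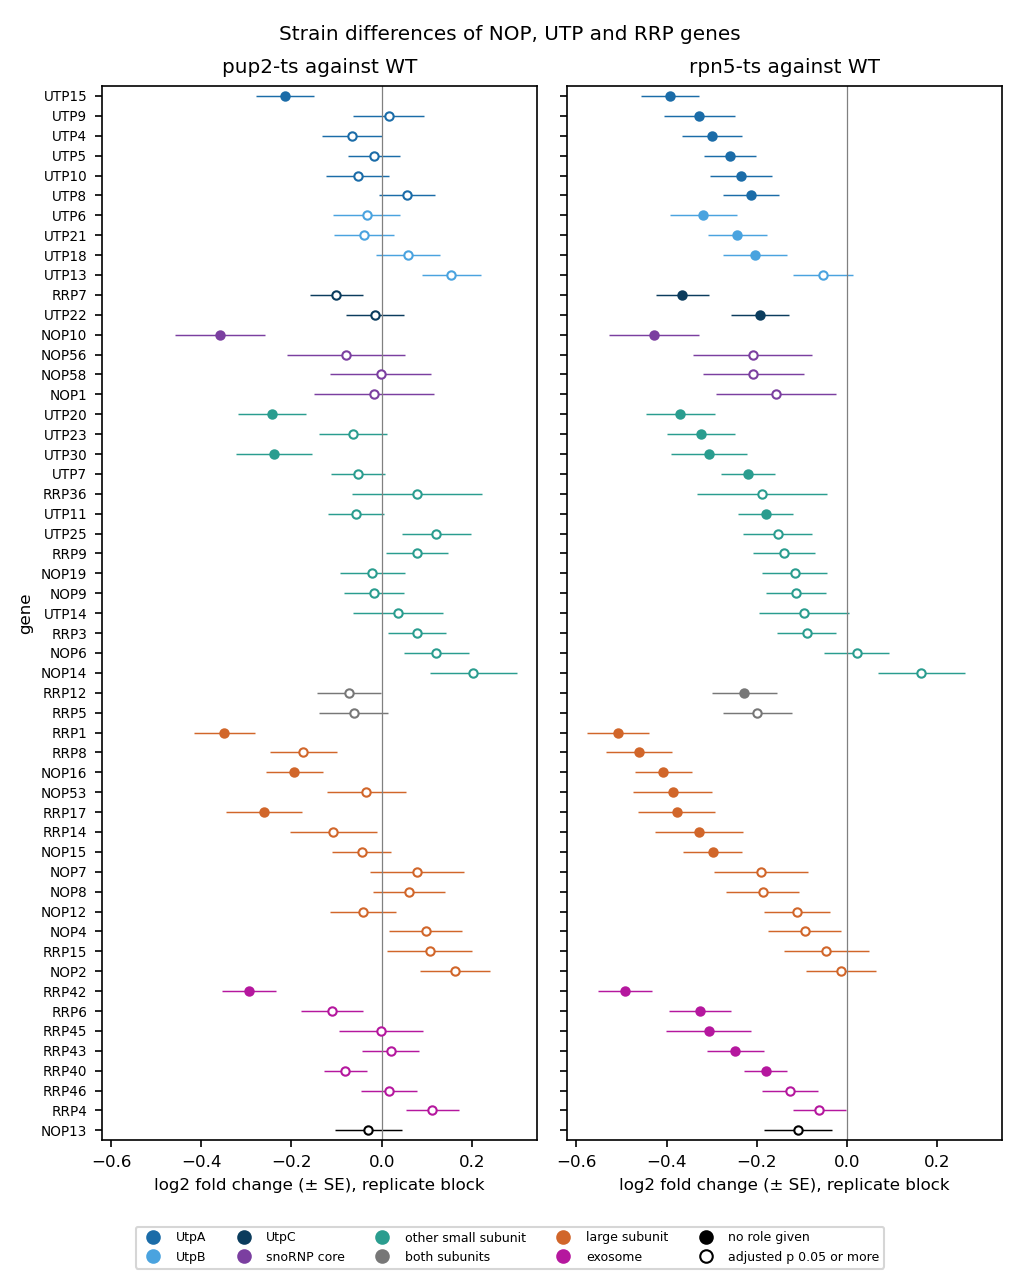
Points give the log2 fold change (± SE) of each of the 53 genes against WT in the fit with the replicate number as a block, for pup2-ts (left) and rpn5-ts (right), with filled points for an adjusted p under 0.05. In rpn5-ts 30 points are filled, all left of 0, and in pup2-ts 8 are.

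In pup2-ts none of the 53 genes was called against WT by edgeR with group alone, where 6.65% of all genes were lower and 8.72% higher. At an unadjusted p under 0.05, 1 of the 53 passed, as did 1614 of all 5560 genes. DESeq2 called UTP20 lower, where 10.1% of all genes were, and limma-voom called 0 lower, where 6.37% were. The median log2 change was -0.019, against -0.023 over all genes. Below 0 were 34 of the 53, where 53.2% of all genes were. Leaving out 1 library moved the median between -0.095 and 0.069, and it was above 0 without WT replicate 1 or 2 or pup2-ts replicate 3 or 4. With all annotated features scaled and tested together the median of the 53 was also above 0, at 0.13, and that of all protein-coding genes was 0.13. Of the 53 genes 9 were then below 0, where 51.9% of features were. In that fit 0 were called lower, where 10.1% of features were. The lowest p values belonged to UTP20 (-0.25 ± 0.091, adjusted p = 0.094), RRP1 (-0.33 ± 0.20, adjusted p = 0.31) and NOP2 (0.17 ± 0.12, adjusted p = 0.40). UTP20 was the only one of the 53 with all 4 pup2-ts libraries below all 4 WT libraries, where 9.73% of all genes were.

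With the replicate block 8 genes were lower in pup2-ts and 0 higher, where 19.0% and 19.5% of all genes were. These were NOP10 (-0.36 ± 0.10), RRP1 (-0.35 ± 0.069), RRP42 (-0.29 ± 0.060), RRP17, which trims the large subunit precursor (-0.26 ± 0.085), UTP20 (-0.24 ± 0.076), UTP30 (-0.24 ± 0.084), UTP15 (-0.21 ± 0.064) and NOP16 (-0.19 ± 0.064). The same 8 were lower when the library labelled rpn5-ts replicate 1 was left out of the blocked fit, where 20.4% of all genes were. RRP1 (YDR087C, chromosome IV, 617470 to 618306) measured 188, 194, 140.3 and 153 CPM in the WT libraries, 157, 168, 104 and 108 in those of pup2-ts and 148, 133, 98.0 and 99.2 in rpn5-ts. Each mutant library of RRP1 lay below the WT library of its number, and the groups overlapped, with replicates 3 and 4 the lower in each. In 9 of the 53 genes pup2-ts lay below the same-numbered WT library in all 4 numbers, where 25.3% of all genes did. Within replicates 1 and 2 the fit called 0 genes by edgeR, where 5.07% of all genes were lower. There 1 of the 53 had an unadjusted p under 0.05, as did 1588 of all 5567 genes. Within replicates 3 and 4 the fit called 13 lower and 3 higher, where 33.7% and 32.0% of all genes were.

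The comparisons with WT share the 4 WT libraries, so their values for a gene are not independent. Between the mutants none of the 53 genes was called by edgeR with group alone, where 0.018% of all genes were lower and 0.018% higher. At an unadjusted p under 0.05, 2 of the 53 passed, as did 335 of all 5560 genes. DESeq2 and limma-voom called 0 lower, where 0.144% and 0.018% of all genes were. All 53 had a log2 change below 0 in rpn5-ts against pup2-ts, where 52.0% of all genes did. The median of the 53 was -0.19, against -0.0091 over all genes. The lowest p values were those of UTP5 (-0.24 ± 0.084, adjusted p = 0.73), RRP6 (-0.21 ± 0.090, adjusted p = 0.78) and NOP8 (-0.25 ± 0.12, adjusted p = 0.78). The replicate block gave 0 calls, where 0.054% of all genes were lower and 0.0719% higher. There 33 of the 53 had an unadjusted p under 0.05, as did 1096 of all 5560 genes. The blocked fit gave 5 lower without the library labelled rpn5-ts replicate 1 (NOP15, RRP45, RRP7, UTP23 and UTP9), where 2.66% of all genes were. The block in DESeq2, an alternative added after seeing the data, called 21 of the 53 lower, where 4.44% of all genes were, and in limma-voom 0, where 0.0719% were. Replicates 3 and 4 alone gave 27 lower, where 16.1% of all genes were. The median was -0.10 without pup2-ts replicate 2, -0.12 without rpn5-ts replicate 3 and -0.13 without rpn5-ts replicate 4.

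Whether the strain effects differed between the replicate pairs was tested by an interaction term. For pup2-ts 0 of the 53 genes were called, where 3.47% of all genes were lower and 5.94% higher. An unadjusted p under 0.05 was found for 4 of the 53 and for 1653 of all 5560 genes. DESeq2 called 2 lower and limma-voom 0, where 6.55% and 3.17% of all genes were. NOP10 (-0.44 ± 0.15, adjusted p = 0.084), RRP36 (0.58 ± 0.20, adjusted p = 0.098), NOP56 (-0.43 ± 0.19, adjusted p = 0.15) and RRP45 (-0.26 ± 0.11, adjusted p = 0.15) had the lowest adjusted p. For rpn5-ts 0 were called, where 0.432% of all genes were lower and 1.24% higher. An unadjusted p under 0.05 was found for 2 of the 53 and for 1189 of all 5560 genes. DESeq2 called 1 lower and limma-voom 0, where 3.09% and 0.396% of all genes were. The lowest adjusted p values were those of RRP45 (-0.46 ± 0.11, adjusted p = 0.075), RRP36 (0.48 ± 0.21, adjusted p = 0.22), NOP10 (-0.32 ± 0.15, adjusted p = 0.24) and NOP4 (-0.23 ± 0.12, adjusted p = 0.29). Leaving out WT replicate 2 called 3 genes lower and 1 higher for pup2-ts, where 15.6% and 16.7% of all genes were, and 2 lower for rpn5-ts, where 10.1% were. Leaving out rpn5-ts replicate 2 called 1 lower for rpn5-ts, where 6.35% were.

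In rpn5-ts 5.4% of all genes were lower with group alone and 19.9% with the block, and no difference between lists was tested. Among the other lists, 2 of the 93 further assembly factors were lower in rpn5-ts with group alone, PWP2, a UtpB subunit (-0.35 ± 0.093, adjusted p = 0.028), and SDA1, a large subunit factor (-0.39 ± 0.12, adjusted p = 0.0497), and 49 with the block. Of the RNA polymerase I genes, RPA190, its largest subunit, was lower (-0.39 ± 0.11, adjusted p = 0.031), and 7 of 15 with the block. Of the regulators TOD6 (-0.57 ± 0.17, adjusted p = 0.042) and RAP1 (-0.31 ± 0.092, adjusted p = 0.044) were lower, and 6 of 12 with the block. DOT6 was lower in both mutants with the block, at -1.46 ± 0.070, adjusted p = 2.4e-06 in pup2-ts and -1.16 ± 0.070, adjusted p = 1.2e-05 in rpn5-ts, and had -1.49 ± 0.73, adjusted p = 0.21 and -1.21 ± 0.72, adjusted p = 0.30 with group alone. Its levels were highest in the WT libraries of either pair. In the 131 ribosomal protein genes RPL9B, which has a near-identical copy, was higher in rpn5-ts (0.46 ± 0.13, adjusted p = 0.038) and in pup2-ts (0.64 ± 0.13, adjusted p = 0.0075), and none was lower with group alone. In that fit 8.27% of all genes were higher in rpn5-ts and 8.72% in pup2-ts, and 5.4% and 6.65% were lower.

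NOP14, a small subunit factor (YDL148C, chromosome IV, 188154 to 190586), lies beside the gene altered in rpn5-ts and was looked at for that position. NOP14 and RPN5 are transcribed away from each other, with 337 bases between their coding intervals. The stretch between their intervals in the count table is shown because it is the region before both genes. It is read on the plus strand, toward RPN5, with PAC, RRPE and PACE matches in capitals. PACE, the element bound by the proteasome regulator Rpn4, was searched as GGTGGCAAA on both strands and could share up to 3 bases with RRPE.
NOP14 and RPN5 (chrIV:190617-190872, plus strand): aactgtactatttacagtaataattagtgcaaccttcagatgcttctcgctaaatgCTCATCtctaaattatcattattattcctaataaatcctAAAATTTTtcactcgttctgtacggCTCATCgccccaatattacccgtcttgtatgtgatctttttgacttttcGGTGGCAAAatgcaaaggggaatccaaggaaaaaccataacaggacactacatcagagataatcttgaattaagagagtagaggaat

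The stretch holds 2 PAC, 1 RRPE and 1 PACE match, and NOP14 was the 1 gene of the 53 with PACE in its window, which 1.28% of all windows hold. NOP14 measured 413, 346, 265 and 284 CPM in the WT libraries, 459, 459, 310.5 and 289 in those of pup2-ts and 375, 437, 302 and 340.5 in those of rpn5-ts. RPN5 stood at 448, 378, 277 and 287 CPM in the same order of WT libraries, at 821, 817, 681 and 651 in pup2-ts libraries and at 733, 514, 403 and 399.8 in rpn5-ts libraries. Both genes were lower in replicates 3 and 4, with log2 differences of -0.47 ± 0.072 for NOP14 and -0.49 ± 0.093 for RPN5. In pup2-ts all 4 NOP14 values lay above the same-numbered WT libraries, and the log2 change was 0.21 ± 0.20, adjusted p = 0.54 with group alone and 0.20 ± 0.10, adjusted p = 0.12 with the block. RPN5 had 1.09 ± 0.22, adjusted p = 0.0064 there. In rpn5-ts NOP14 had 0.15 ± 0.20, adjusted p = 0.65 with group alone and 0.16 ± 0.10, adjusted p = 0.20 with the block. The ts allele and the URA3 marker written with it cannot be told apart here. The gene nearest PUP2 among the 53 was NOP19, at 2128 bases, with -0.017 ± 0.16, adjusted p = 0.96 in pup2-ts.

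**Figure D5:**
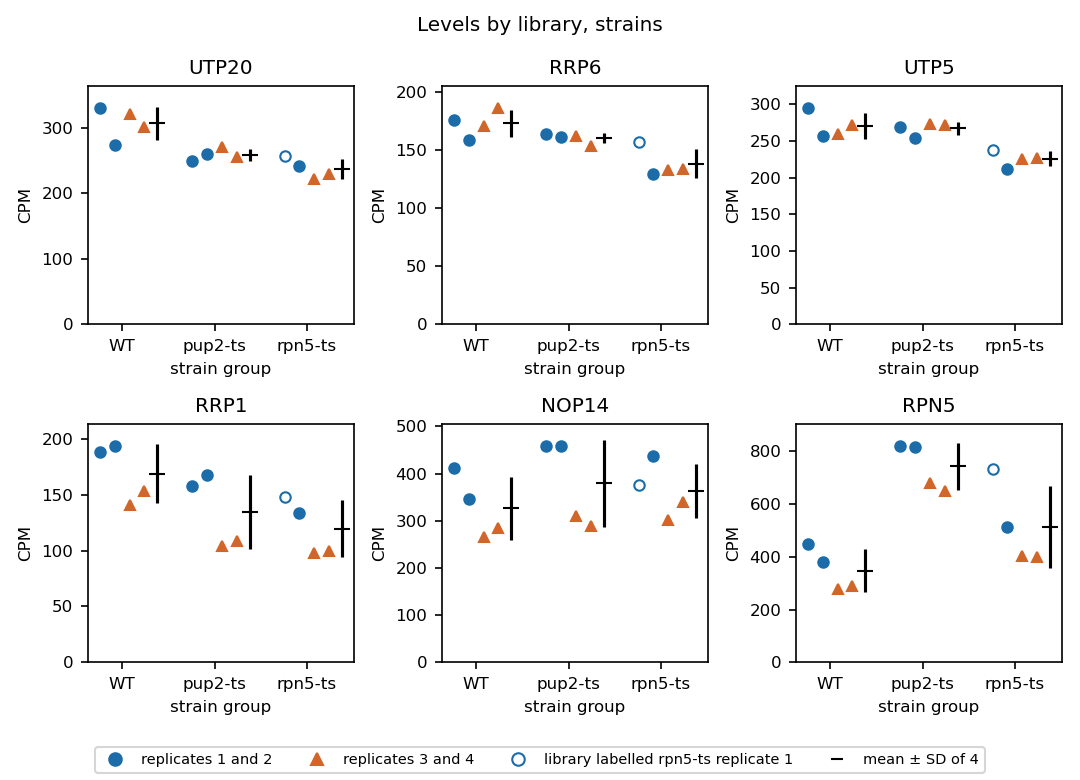
Each panel shows the CPM of a gene in the 12 libraries by strain group, with circles for replicates 1 and 2, triangles for replicates 3 and 4, an open circle for the library labelled rpn5-ts replicate 1, and a bar for mean ± SD of 4 libraries. UTP20 and RRP6 lie lower in all rpn5-ts libraries than in WT, RRP1 differs by replicate pair and by strain, and NOP14 and RPN5 share the fall from the first pair to the second.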

How the data were processed

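PolyA-selected RNA (KAPA mRNA HyperPrep, after hot acid phenol extraction) was sequenced from 12 yeast libraries. The authors deposited raw counts per annotated feature (12768 features), made with STAR 2.5.2b and featureCounts of Subread 1.5.1 on sacCer3, per the submitters' processing notes. Strand setting and treatment of multimapping reads are not given in the sources used here. Counts of 5585 protein-coding genes matched to R64 by name were kept, and 0 per-sample columns went unused. R 4.3.3 and edgeR 4.0.16 (TMM, filterByExpr, quasi-likelihood test with Benjamini-Hochberg adjusted p under 0.05) were used on 5560 genes, with each SE computed as the absolute log2 change divided by the root of its F statistic. DESeq2 1.42.0 and limma 3.58.1 were alternatives, and Python 3.11.15, pandas 2.3.3 and matplotlib 3.10.9 did the rest. The test scripts were tested on simulated data. In the simulated strain comparison the replicate pairs did not differ, so that fit was not tested under the pair difference of these libraries.

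Same-numbered libraries of different groups had correlations of deviations of 0.14 to 0.78 over 12 pairs. All were above the bound of 0.1, and by that rule the number was used as a block. Libraries sharing only the form of the name reached 0.4 to 0.81, so pairing by number and by form cannot be told apart. Deviations from group means hold the difference between the replicate pairs, so passing the bound does not show pairing by number. The labels name biological replicates and nothing more, so p-values measure the spread between these samples.

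Genes were named by rule: the largest changes called per comparison (or the lowest p where none was called), the highest and lowest per-length levels, the exosome genes, the regulators, and up to 3 of each other list. Members outside the rule, and NOP14 and RPN5 for their position, were named to account for all 53. The members and lists were chosen with earlier results of these data known.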

Additional observations from a re-analysis of the deposited data

Results flagged for a closer look

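In 171 groups of 4 values, 2 held a library far from the others. For 4 draws from 1 population chance gives about 1 group in 20. Each group here holds both replicate pairs, and a difference between the pairs can hide such a library. The count of 2 therefore cannot be set against that rate. RRP45 stood at 136 CPM in WT replicate 2, with the other WT libraries at 115 to 119. RRP6 stood at 157 CPM in the library labelled rpn5-ts replicate 1, with the other rpn5-ts libraries at 129 to 134.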

How the results depend on the processing

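No direction that had been called was reversed under any alternative run. Beside each count, the share of all genes called in that direction is in brackets. With the replicate block, 8 genes were lower in pup2-ts (19.0%) and 30 in rpn5-ts (19.9%). Without the library labelled rpn5-ts replicate 1 the blocked fit gave 8 (20.4%) and 25 (20.2%) lower and 1 higher in rpn5-ts (21.3%), and 5 lower between the mutants (2.66%). The form of the name as a term gave 8 (21.7%) and 31 (22.2%) lower. Of 3 alternatives chosen after seeing the data, that term without the same library gave 8 (23.1%), 30 (23.2%) and, between the mutants, 15 lower (5.04%), with 1 higher in rpn5-ts (22.9%). The block in DESeq2 gave 8 lower (22.3%) and 2 higher (21.7%) in pup2-ts, 31 lower in rpn5-ts (1332 of 5560 genes) and 21 between the mutants (4.44%), and in limma-voom 6 (19.8%) and 28 (21.1%) lower. Replicates 3 and 4 alone gave 13 lower (33.7%) and 3 higher (32.0%) in pup2-ts, 35 lower (30.7%) and 1 higher (32.8%) in rpn5-ts and 27 lower between the mutants (16.1%), and replicates 1 and 2 alone 4 lower in rpn5-ts (5.6%). In pup2-ts the shares of the 53 genes lower in these fits, 11.3% to 24.5%, lay below those of all genes. Without a block, rpn5-ts had 4 lower by DESeq2 (8.96%), 1 with upper-quartile factors (4.57%), and 0 with its 8 libraries alone (3.85%) or with all annotated features (6.04%), and pup2-ts had 1 lower by DESeq2 (10.1%). Leaving out 1 library gave 0 to 2 lower in rpn5-ts. With all annotated features the median of the 53 genes was 0.13 in pup2-ts, with 9 below 0 (51.9% of features), and -0.12 in rpn5-ts. The medians of the protein-coding genes in those fits were 0.13 and 0.068. Between replicate pairs, upper-quartile factors gave 1 higher (24.2%) and a median of -0.59, all annotated features a median of -0.43, WT alone 26 lower (14.7%), 0 higher and -0.42, and rpn5-ts alone 0 higher. There, leaving out 1 library gave 43 to 44 lower and medians of -0.53 to -0.48. Upper-quartile factors moved the median of all genes there to -0.13, with 24.2% higher and 42.0% lower. For the interaction, DESeq2 called 2 lower for pup2-ts (6.55%) and 1 for rpn5-ts (3.09%), and leaving out 1 library gave 0 to 3 lower and 0 to 1 higher for pup2-ts and 0 to 2 lower for rpn5-ts. Why these counts differ was not tested. For single named genes, combinations of gene, comparison and alternative setting were counted. Of these, 914 left the call, or its absence, as it was, 100 lost a call and 22 gained one.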
